A study of Mus musculus with 6 samples.

Results

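The 31 genes described here make fatty acids and turn them into phospholipids and triglycerides. They were chosen by name, and the level of each was read from the probe set, among those paired with a single gene symbol, that had the highest mean log2 signal over the 6 arrays of the series. Such a probe set was found for 30 of the 31 members, out of 18193 genes in all, and Acsl1, an acyl-CoA synthetase, had none. Acacb and Thrsp were not tested because their signals stayed under the detection floor (percentile 40 of the probe sets on an array) on most arrays. The other 28 members were tested among 13335 genes.

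Cells build fatty acids in the cytosol from citrate that leaves the mitochondrion. ATP citrate lyase splits it to acetyl-CoA, acetyl-CoA carboxylase and fatty acid synthase make palmitate, and elongases and desaturases lengthen and unsaturate the chain. Acyl chains are then joined to a glycerol backbone, and the choline branch gives phosphatidylcholine. In the lung this pathway is best known from the alveolar type II cell, which secretes surfactant, a film rich in dipalmitoyl phosphatidylcholine, and which steps up its lipid synthesis shortly before birth. Desaturase 1 and desaturase 2, encoded by Scd1 and Scd2, both put the first double bond into saturated chains, and Scd2 is the form known for its use in brain and before birth.

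The series holds 2 sorted populations of mouse lung cells, with 3 arrays each. The E18 samples were Muc1+/Pdpn+ cells sorted from lungs at embryonic day 18, called bipotent progenitors by the series, and the adult samples were Lyz2+/EpCAM+ cells from adult lungs, called ATII cells. Strain, sex, adult age and any pooling of animals are not given in the sources used here, and the replicates are described as biological. Age and sorted population differ together, so their effects cannot be told apart. All samples were total RNA amplified in 2 cycles and hybridized to Affymetrix mouse 3' expression arrays. Values are log2 of the MAS5 signal that the authors deposited, differences are adult minus E18, and a gene was called at a limma adjusted p under 0.05 over all 13335 genes.

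Some arrays stood apart before any member was considered. The ratio of 3' to 5' control signal was 11.7 for beta-actin and 24.6 for Gapdh on adult replicate 1, against 1.35 to 1.55 and 4.70 to 6.18 on the other arrays. The third replicate of each population had poly-A spike-in signals of 12926 and 18382, against 117 to 784 on the other 4 arrays. Lyz2, which names the adult sort, differed by -2.86 (adjusted p = 0.00303), lower in adult cells, which goes against the label, and Pdpn, which names the E18 sort, was lower by -2.27 (adjusted p = 0.00924). Epcam did not pass (-1.41, adjusted p = 0.359), and neither did Muc1 (-2.07, adjusted p = 0.206). Type II cell markers were present on every array, with 0 of 8 called, Sftpc between 13.90 and 14.17 in E18 and between 14.50 and 14.67 in adult arrays, and the summed signal of the list between 35748 and 55035 in E18 and between 45622 and 76265 in adult arrays. Their differences lay below 0 in 4 and above 0 in 4, with Etv5 at -2.25 (adjusted p = 0.119, no overlap) and Slc34a2 at -1.05 (adjusted p = 0.253). Markers of some other cells differed more. Summed mesenchymal signal ran from 37492 to 62334 in E18 and from 2191 to 14613 in adult arrays (7 of 9 lower), and summed lymphocyte signal from 8182 to 16052 and from 18253 to 59571 (3 of 9 higher). Among all genes tested, 4.57% were called lower and 1.41% higher. Macrophage markers (0 of 8 called) summed to 28276 to 50246 in E18 and to 48091 to 82268 in adult arrays. Of these 8 markers, 5 differed below 0 and 3 above 0, with a median of -0.33, which the sums do not show. Airway cell markers had 0 of 4 called. In bulk RNA fewer cells of a type and less RNA per cell cannot be told apart.

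Of the 28 members tested, Scd2 alone passed the test, and it was lower in the adult arrays. No member was called higher, and 27 did not pass. Of all 13335 genes 5.98% were called, 4.57% lower and 1.41% higher, so 1 of 28 is a share near the background. At an unadjusted p under 0.05 there were 4 members, Scd2, Fads2, Elovl1 and Gpam, against 21.6% of all genes. The arrays of the populations did not overlap for 6 of 28 members, 4 lower and 2 higher, where 28.9% of all genes did not overlap (18.8% lower and 10.1% higher).

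As a whole the members lay near the centre of all genes. Their median difference was -0.21 and that of all genes -0.17, and 53.6% of members against 59.0% of all genes lay below 0. The median size of the difference, whatever its sign, was 0.29 for members and 0.53 for all genes, while the median SE was 0.43 and 0.44. So 23 of 28 members differed by less than 1 on the log2 scale, that is by less than 2-fold. The 95% interval stayed within 1 of 0 for 4 members and within 2 of 0 for 20, so these arrays bound the difference of most members only loosely. Other scalings moved the median of all genes, to -0.05 after quantile normalization and to -0.02 with arrays centred on their medians, and the member median was then -0.26 and -0.06.

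**Figure D1:**
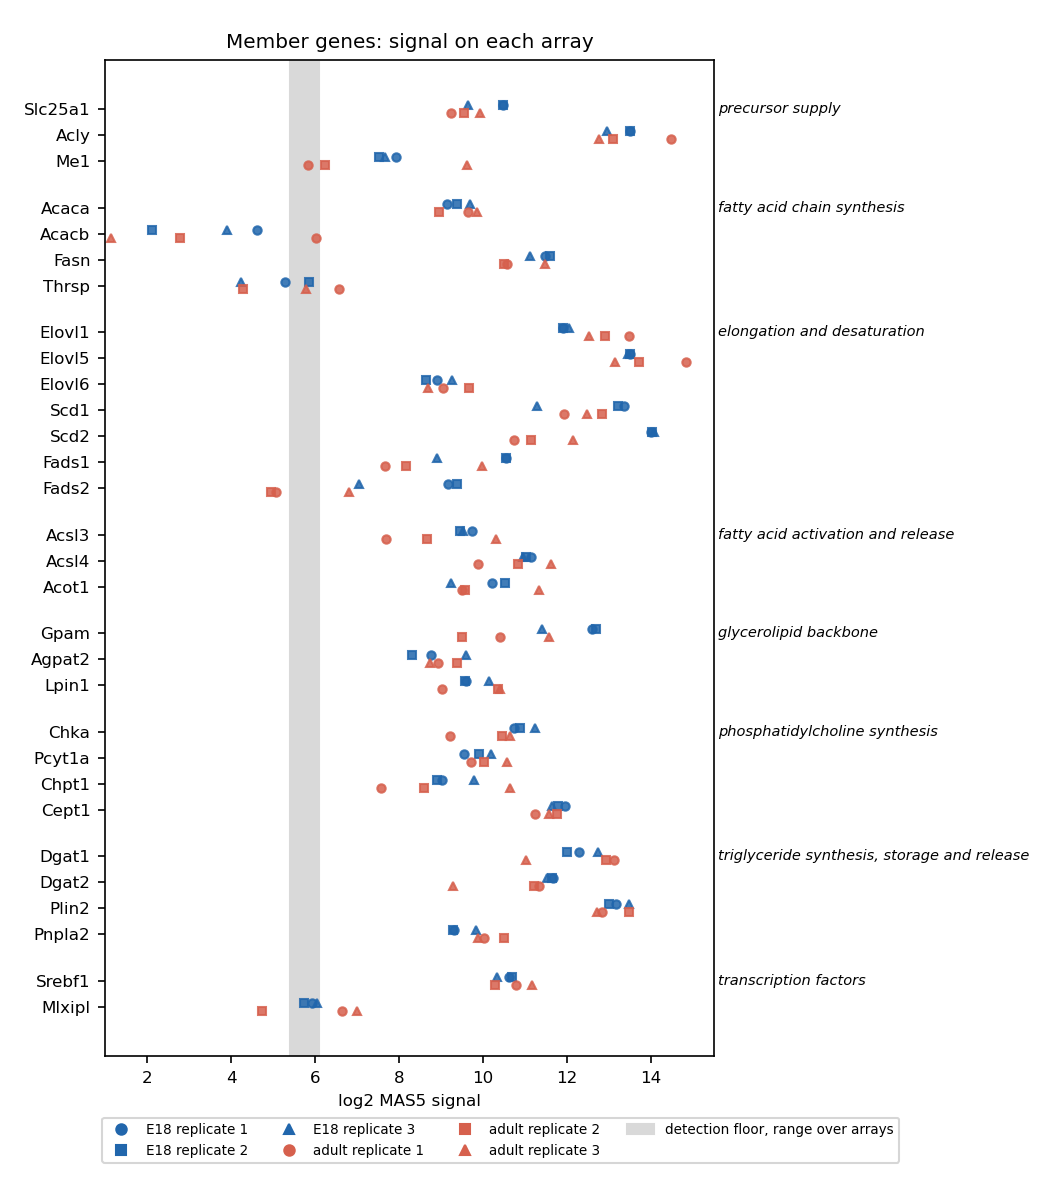
Log2 MAS5 signal (horizontal axis) of the 30 members with a probe set, on each of the 6 arrays, grouped by role, with E18 arrays in blue and adult arrays in red, a symbol for each replicate, and the range of the detection floor in grey. The 3 E18 values of Scd2 lie between 14.01 and 14.08, above its adult values of 10.73 to 12.13, while the adult values of most other members spread across their E18 values.

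Among the elongases and desaturases, Scd2 showed the one change that passed. Its log2 signal on E18 arrays 1, 2 and 3 was 14.01, 14.03 and 14.08, and on adult arrays 1, 2 and 3 it was 10.73, 11.14 and 12.13. On the linear scale these are signals of 16468, 16786 and 17276 against 1698, 2253 and 4492. All 3 E18 arrays were nearly alike and all 3 adult arrays lay lower, with adult replicate 3 the closest to E18. The means were 14.04 ± 0.035 and 11.33 ± 0.72 (SD, n = 3), a difference of -2.71 (SE 0.38, 95% interval -3.60 to -1.81, adjusted p = 0.0111), or 6.53-fold lower in adult cells. The other probe sets of Scd2 differed by -2.51 and -1.37, and neither overlapped between the populations. Both include adult values under the floor. These were 5.24 and 4.97 on adult replicates 1 and 2 for the first, and 4.96 on adult replicate 2 for the second. The call did not pass without E18 replicate 1 (adjusted p = 0.0757), without E18 replicate 2 (0.0739) or without adult replicate 2 (0.0554), with differences of -2.72, -2.71 and -2.61.

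Cell type markers that also differed between the populations are given here beside Scd2. For comparison, 4.57% of all genes were called lower and 18.8% lay lower without overlap. Type I cell markers (4 of 8 lower, Pdpn among them) summed to 56100 to 74698 in E18 and to 13855 to 19802 in adult arrays, with a median difference of -2.73, and 7 of the 8 did not overlap. Endothelial markers (3 of 8 lower) summed to 15771, 16901 and 4997 on E18 arrays 1, 2 and 3, and to 2160 to 3752 on adult arrays. Summed lipofibroblast signal, from 6 genes of the lipid-storing fibroblasts of the alveolar wall, was 25584 to 27607 in E18 and 10609 to 14212 in adult arrays (3 of 6 lower). Mesothelial markers had sums of 4691 to 6747 and of 228 to 574 (3 of 4 lower). The 3 E18 arrays spanned 0.07 in log2 Scd2, which is 16468 to 17276 in linear signal. Marker sums on these arrays, also linear, spanned 4997 to 16901 for endothelial, 37492 to 62334 for mesenchymal and 25584 to 27607 for lipofibroblast markers. Among adult arrays Scd2 was highest in replicate 3. There the mesenchymal sum was lowest at 2191, and the endothelial and type I sums were highest at 3752 and 19802. The median departure of endothelial markers from their own means was instead lowest in replicate 3. It was -2.54 there, against -1.12 and -0.76 on adult replicates 1 and 2, so the sum does not describe most of that list. The lipofibroblast and mesothelial sums there, 13303 and 262, lay between those of the other adult arrays. The part of these cells in the Scd2 difference was not tested. Adipocyte markers were low on all arrays, with sums of 201 to 374 in E18 and 425 to 512 in adult arrays, and Adipoq and Lep, which mark fat cells, were under the floor on every array.

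Scd1, the other desaturase of its kind on this list, did not pass the test. Its log2 signal, in replicate order, was 13.36, 13.21 and 11.28 on E18 arrays, and 11.93, 12.83 and 12.47 on adult arrays. E18 replicate 3 was the lowest of the 6 and the other E18 arrays were the highest, so the populations overlapped. The difference was -0.21 (SE 0.57, 95% interval -1.55 to 1.13, adjusted p = 0.865), an interval that leaves room for about as large a fall as for a rise. A dimmer probe set of Scd1 read 8.91, 8.69 and 7.51 in E18 and 10.27, 9.56 and 9.42 in adult arrays, a difference of 1.38 without overlap, so the direction of Scd1 depended on the probe set and no direction is given for it.

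The balance between Scd1 and Scd2 was compared within each array, as the log2 signal of Scd1 minus that of Scd2. Since probe sets bind with unequal strength, the change of this ratio between populations has a meaning and its level has none. It was -0.64, -0.83 and -2.80 in E18 and 1.20, 1.69 and 0.33 in adult arrays, and every adult array was above every E18 array. The ratio was higher in adult cells by 2.50, or 5.64-fold (exact two-sided permutation p = 0.1, the smallest that 3 against 3 arrays allow, and 0.175 after Benjamini-Hochberg adjustment over 7 paralog pairs). Over all 6 combinations of the 2 probe sets of Scd1 and the 3 of Scd2 the change was positive, from 1.16 to 4.09, and 4 of the 6 did not overlap. Combinations with the dimmer Scd2 probe sets include adult values under the floor. All 6 share the same arrays and the lower adult Scd2 signal, so they do not count as separate evidence. The ratio changed by 2.18 in replicates 1 and 2 alone and by 3.13 between the third replicates. Leaving out 1 array at a time gave 1.81 to 2.89.

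**Figure D2:**
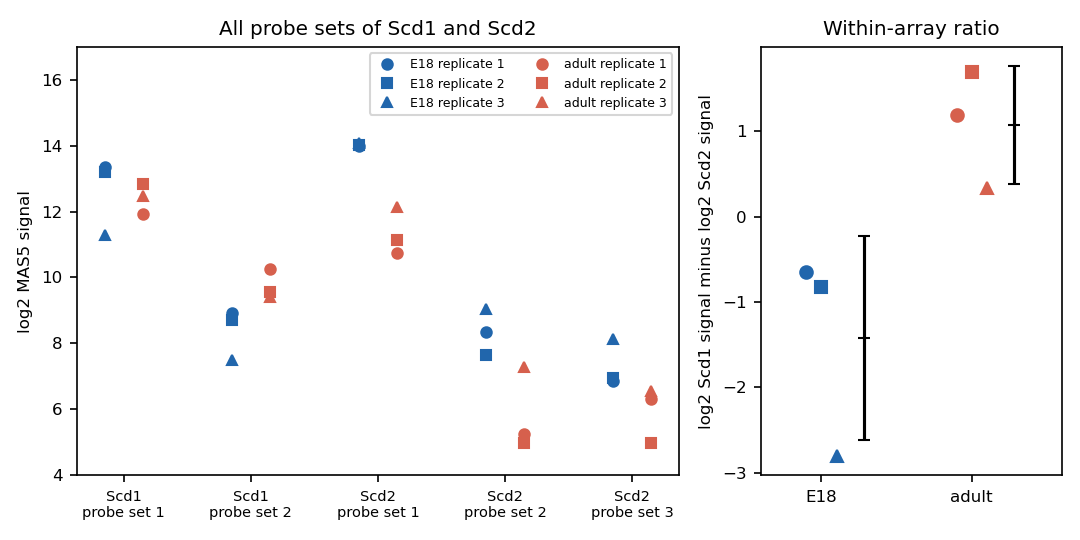
Left, log2 MAS5 signal of each probe set of Scd1 and Scd2 on the 6 arrays, the brightest probe set of each gene being number 1. Right, the log2 signal of Scd1 minus that of Scd2 within each array, from the brightest probe sets, with the mean and SD (n = 3) as bars. All 3 probe sets of Scd2 are lower in adult arrays, and the adult ratios of 0.33 to 1.69 lie above the E18 ratios of -2.80 to -0.64.

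Fads1 and Fads2, neighbouring genes for the desaturases that make polyunsaturated fatty acids, had lower means in adult arrays, and neither passed. Fads2 read 9.16, 9.37 and 7.06 in E18 and 5.08, 4.95 and 6.82 in adult arrays. The arrays did not overlap, by the narrow margin between E18 replicate 3 and adult replicate 3, and adult replicates 1 and 2 were under the floor. The Fads2 difference was -2.92 (SE 0.77, adjusted p = 0.0756), and -2.52 with values under the floor set to the floor. Its 3 probe sets gave -2.92, -3.25 and -1.39. Fads1 ranged from 8.90 to 10.55 in E18 and from 7.65 to 9.98 in adult arrays, a difference of -1.39 (SE 0.70, adjusted p = 0.302). Within arrays the log2 ratio of Fads1 to Fads2 was higher in every adult array than in every E18 array, by 1.53 on average (exact permutation p = 0.1, adjusted 0.175), a mean that includes the adult Fads2 values under the floor. Of the 7 paralog pairs, Elovl6 to Elovl5 (-0.21, exact p = 0.9), Acsl3 to Acsl4 (-0.41, exact p = 0.4) and Chpt1 to Cept1 (-0.039, exact p = 1) overlapped between the populations.

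The elongases did not pass. Elovl1, which extends very long saturated chains, read 11.90, 11.91 and 12.04 in E18 and 13.48, 12.90 and 12.53 in adult arrays, without overlap and with adult replicate 1 highest. Its difference was 1.02 (SE 0.31, adjusted p = 0.111), or 2.02-fold higher. The probe set used is of the kind marked _x, which holds probes that can bind other sequences. All 3 such probe sets of Elovl1 were higher in adult arrays (0.96 to 1.08), and its remaining probe set was lower (-0.62), with 8.54 on adult replicate 1 against 10.49 to 11.00 on the other arrays. Elovl5, an elongase of polyunsaturated chains, ran from 13.46 to 13.51 in E18 and from 13.15 to 14.82 in adult arrays (0.41, adjusted p = 0.630). Its _x probe set gave that value, and its other probe set gave -0.54. Elovl6, which turns palmitate into stearate, differed by 0.20 (adjusted p = 0.792). The log2 ratio of Elovl1 to Elovl5, both read from _x probe sets, changed by 0.61 without overlap (exact permutation p = 0.1, adjusted 0.175).

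The same split appeared across the array and in other members. In 823 genes, probe sets marked _x were compared with those that carry no letter mark. The _x ones departed from their own mean by a median of 1.02 more on adult replicate 1. On the other 5 arrays this median was -0.33 to -0.14. On adult replicate 1 the _x probe sets were the higher in 81.7% of these genes. Acly, Elovl1 and Elovl5 are members whose value came from such a probe set, and the brightest of their other probe sets had the opposite sign. Of 18 members with more than 1 probe set above the floor, the probe sets had the same sign in 9, Scd2, Fads1, Fads2, Chka, Dgat1, Dgat2, Lpin1, Me1 and Pnpla2 among them. The sign differed in the other 9, which were Acly, Acsl3, Acsl4, Chpt1, Elovl1, Elovl5, Elovl6, Pcyt1a and Scd1. With probe sets marked _x or _s left out, Scd2 remained the 1 member called (adjusted p = 0.0102), and Elovl1, Elovl5 and Acly read -0.62, -0.54 and -0.85.

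**Figure D3:**
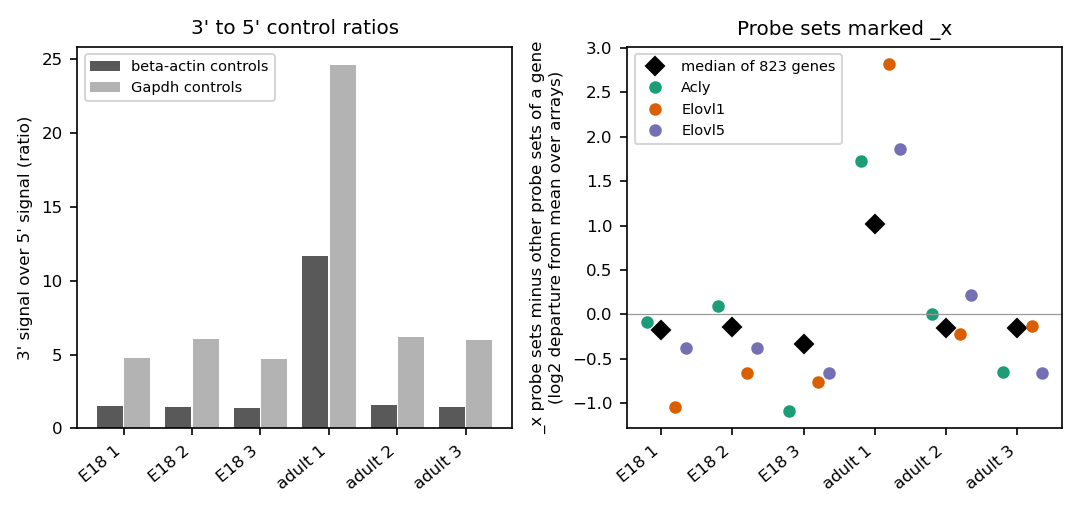
Left, the ratio of 3' to 5' control signal on each array for beta-actin and Gapdh. Right, the log2 departure of _x probe sets from their mean over arrays, less that of the other probe sets of the same gene above the floor, as the median of 823 genes (black) and for 3 members (colours). The other probe sets are those with no letter mark for the 823 genes, and all not marked _x for the members. Adult replicate 1 has ratios of 11.7 and 24.6 and a median departure of 1.02, above the other 5 arrays in both panels.

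Precursor supply and chain synthesis held no called member. Slc25a1, the mitochondrial citrate carrier, ranged from 9.64 to 10.49 in E18 and from 9.24 to 9.94 in adult arrays (-0.62, adjusted p = 0.366). Acly, the citrate lyase, was bright in both, between 12.95 and 13.49 in E18 and between 12.77 and 14.47 in adult arrays (0.13, adjusted p = 0.897). Me1, the malic enzyme that supplies NADPH, was tightly grouped in E18 at 7.52 to 7.93 and spread over 5.84 to 9.61 in adult arrays (-0.47, adjusted p = 0.807). Fasn, the fatty acid synthase, lay between 11.12 and 11.60 in E18 and between 10.51 and 11.48 in adult arrays (-0.54, SE 0.35, adjusted p = 0.420). Acaca, the main carboxylase of fatty acid synthesis, lay between 9.14 and 9.69 and between 8.95 and 9.85 (0.07, adjusted p = 0.925). Acacb, the carboxylase that bears on fatty acid oxidation, and Thrsp, a small protein tied to lipogenesis, were under the floor on most arrays, and no difference is given for them.

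Enzymes that activate or release acyl chains also overlapped between the populations. Acsl3 and Acsl4, which join fatty acids to coenzyme A, differed by -0.68 (adjusted p = 0.577) and -0.27 (adjusted p = 0.769). The E18 arrays lay close together for both, at 9.46 to 9.73 and 10.96 to 11.15, inside adult ranges of 7.68 to 10.30 and 9.88 to 11.63. Acot1, a thioesterase that frees fatty acids from coenzyme A, differed by 0.14 (adjusted p = 0.913).

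On the glycerolipid side the widest difference was in Gpam, the mitochondrial enzyme that adds the first acyl chain to glycerol phosphate. It ranged from 11.40 to 12.68 in E18 and from 9.49 to 11.57 in adult arrays, overlapping only because adult replicate 3 exceeded E18 replicate 3. The Gpam difference was -1.74 (SE 0.58, 95% interval -3.09 to -0.38), with an adjusted p of 0.140. Agpat2, which adds the second chain, and Lpin1, the phosphatase that yields diacylglycerol, differed by 0.12 (adjusted p = 0.892) and 0.16 (adjusted p = 0.864).

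No enzyme of the choline branch was called. Chka, the choline kinase, read 10.73, 10.87 and 11.23 in E18 and 9.20, 10.44 and 10.64 in adult arrays. The populations did not overlap, by a small margin except for adult replicate 1. The Chka difference was -0.85 (SE 0.43, 95% interval -1.84 to 0.14, adjusted p = 0.300). Pcyt1a, the enzyme that activates phosphocholine with CTP and sets the pace of phosphatidylcholine synthesis, lay between 9.56 and 10.20 in E18 and between 9.72 and 10.58 in adult arrays (0.23, 95% interval -0.57 to 1.03, adjusted p = 0.748). Other probe sets of Pcyt1a gave 0.17, -0.45 and -1.23, so its direction depended on the probe set. Of the enzymes of the last step, Chpt1 differed by -0.31 (adjusted p = 0.846) and Cept1 by -0.27 (adjusted p = 0.621). The other Chpt1 probe sets gave -1.72, -0.03 and 0.15. Cept1 varied little, at 11.63 to 11.96 in E18 and 11.25 to 11.77 in adult arrays.

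Triglyceride synthesis, storage and release held 2 members without overlap, and neither passed. Dgat2, one of the enzymes that complete triglyceride, read 11.66, 11.63 and 11.53 in E18 and 11.34, 11.22 and 9.27 in adult arrays (-0.997, SE 0.55, adjusted p = 0.338). Adult replicate 3 stood far below the rest, with a difference of -2.26 between the third replicates and -0.37 in replicates 1 and 2. Pnpla2, the lipase that opens triglyceride breakdown, read 9.30, 9.29 and 9.84 in E18 and 10.03, 10.51 and 9.89 in adult arrays (0.67, SE 0.32, adjusted p = 0.285). Dgat1, unrelated to Dgat2 in sequence and catalysing the same step, was 11.99 to 12.74 in E18 and 11.02 to 13.12 in adult arrays (0.02, adjusted p = 0.989). The log2 ratio of Dgat1 to Dgat2 was 0.63, 0.36 and 1.21 in E18 and 1.78, 1.72 and 1.74 in adult arrays, a change of 1.01 without overlap (exact permutation p = 0.1, adjusted 0.175). Plin2, the coat protein of lipid droplets, stayed between 12.70 and 13.49 on every array (-0.21, adjusted p = 0.736).

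The transcription factors on the list did not pass. Srebf1, whose product SREBP-1 drives genes of fatty acid synthesis, was 10.32 to 10.69 in E18 and 10.27 to 11.17 in adult arrays (0.20, SE 0.32, adjusted p = 0.769). Mlxipl, which encodes the carbohydrate-sensing factor ChREBP, stood near the floor at 5.74 to 6.04 and 4.74 to 6.99 (0.22, adjusted p = 0.876).

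**Figure D4:**
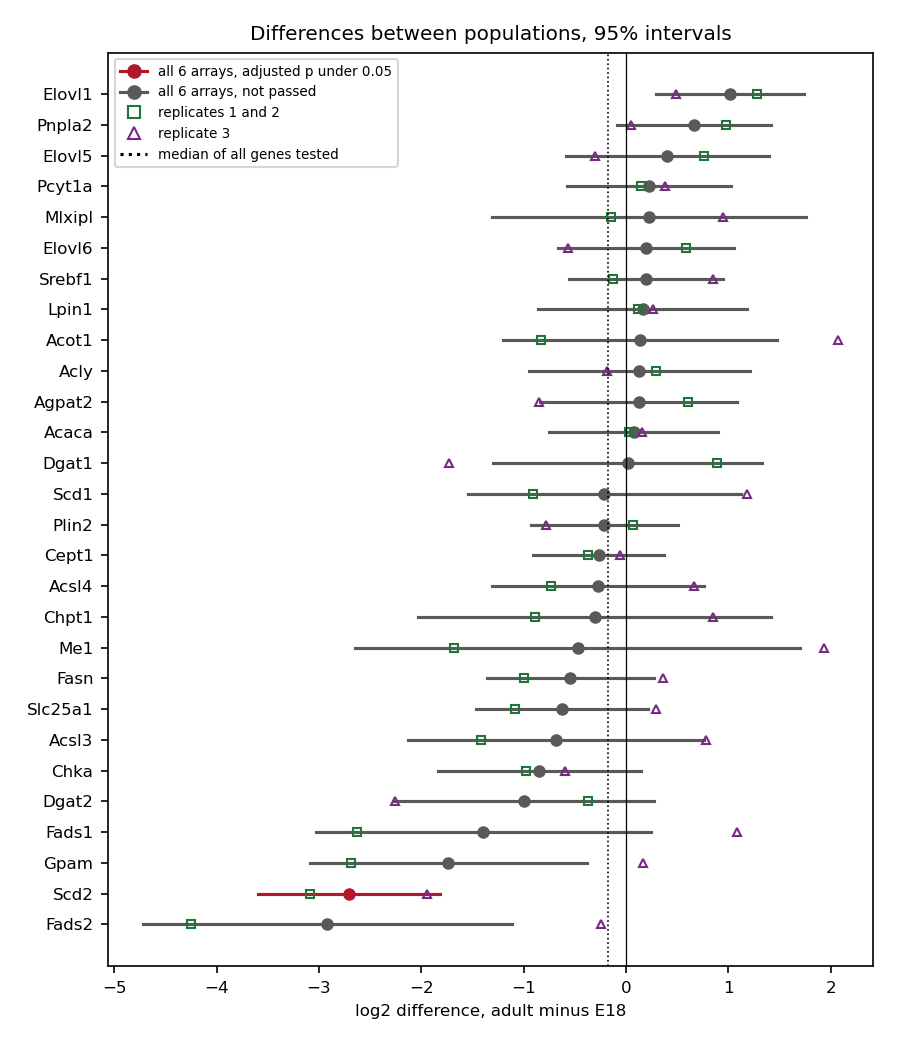
Difference in log2 signal, adult minus E18, for the 28 members tested (circles) with limma's 95% interval, red for Scd2, the member called. Open squares are replicates 1 and 2 alone, open triangles the difference between the third replicates, and the dotted line the median of all genes (-0.17). Squares and triangles fall on opposite sides of 0 for 18 members.

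Replicates were less alike among adult than among E18 arrays. The SD was larger among adult than among E18 arrays in 24 of 28 members, with medians of 0.78 and 0.29. Adult replicate 3 was the highest adult array in 17 members and adult replicate 1 the lowest in 13. The third replicates of both populations share their high spike-in signals, so the differences were also computed within replicates 1 and 2 and within the third replicates. Signs were opposite in 18 of 28 members, or 64.3%, against 45.1% of all genes. In replicates 1 and 2, 17 members were lower and 11 higher. Between the third replicates 11 were lower and 17 higher, with a median of 0.21.

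Within replicates 1 and 2 alone, 8 members were called, 28.6% of those tested, where 22.5% of all genes were called. Elovl1 was higher, and Scd2, Fads1, Fads2, Gpam, Me1, Slc25a1 and Fasn were lower. Fads2 differed by -4.25, Fads1 by -2.63 and Gpam by -2.68 in replicates 1 and 2, and by -0.24, 1.08 and 0.16 between the third replicates. Both adult Fads2 values in replicates 1 and 2 are under the floor, and raising such values to the floor gave -3.66 for that difference. Me1 differed by -1.68 and then by 1.94, Fasn by -0.997 and 0.37, and Slc25a1 by -1.08 and 0.30. Scd2 kept its sign, with -3.09 (adjusted p = 0.00528 in replicates 1 and 2) and -1.94. Elovl1 gave 1.28 and 0.48. Without adult replicate 3 alone, 7 members were called, where 20.8% of all genes were, and without E18 replicate 3 there were 2, Scd2 and Fads2, where 3.79% of all genes were. Without E18 replicate 1, E18 replicate 2 or adult replicate 2 there was no called member, where 0.517%, 0.495% and 1.69% of all genes were called. Beside this, adult replicates 1 and 2 had Epcam at 7.85 and 8.50 and summed lymphocyte signals of 59571 and 47955, and adult replicate 3 had Epcam at 10.68 and 18253. Summed airway cell signal was 85029 on adult replicate 3 and 15854 to 26307 on the other 5 arrays. The part of these cells in the member values was not tested.

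Promoter sequence is shown for Fasn, Slc25a1, Gpam and Fads2 because these members were lower together in replicates 1 and 2. Me1 was lower there too, and its windows, of which 1 held a single CCAAT match and the other 0, are not printed. Scd2 and Fads1, also lower there, had no window in the RefSeq table used. Each run is the 250 bases before a RefSeq transcript start on GRCm38.p6, 5′ to 3′ on the strand of the gene, with CCAAT, the box bound by NF-Y, in capitals on either strand (ATTGG is its complement), and overlapping matches run together.
Fasn, chr11:120824548-120824797, minus strand: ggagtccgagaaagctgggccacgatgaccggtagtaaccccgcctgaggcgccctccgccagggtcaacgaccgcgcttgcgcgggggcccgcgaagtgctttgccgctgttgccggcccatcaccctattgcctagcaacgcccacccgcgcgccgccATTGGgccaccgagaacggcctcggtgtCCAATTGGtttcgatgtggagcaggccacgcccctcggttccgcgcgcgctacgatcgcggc
Slc25a1, chr16:17928220-17928469, minus strand: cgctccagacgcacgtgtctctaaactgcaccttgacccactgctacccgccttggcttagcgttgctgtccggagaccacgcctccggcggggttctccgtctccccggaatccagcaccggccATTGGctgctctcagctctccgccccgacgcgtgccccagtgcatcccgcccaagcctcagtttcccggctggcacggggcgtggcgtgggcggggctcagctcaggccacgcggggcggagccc
Gpam, chr19:55127239-55127488, minus strand: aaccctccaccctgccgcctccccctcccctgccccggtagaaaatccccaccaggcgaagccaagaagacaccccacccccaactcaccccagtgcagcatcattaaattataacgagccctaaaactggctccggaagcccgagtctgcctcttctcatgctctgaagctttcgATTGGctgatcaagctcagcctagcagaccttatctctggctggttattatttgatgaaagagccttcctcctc
Fads2, chr19:10101504-10101753, minus strand: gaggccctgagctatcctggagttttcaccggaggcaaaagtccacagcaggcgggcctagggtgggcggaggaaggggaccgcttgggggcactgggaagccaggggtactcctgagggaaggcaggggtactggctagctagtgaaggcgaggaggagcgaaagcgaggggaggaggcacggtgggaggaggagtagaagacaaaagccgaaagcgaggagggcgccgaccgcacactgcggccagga
The Fasn window held 3 matches, of which 2 overlap in a palindrome, the Slc25a1 and Gpam windows held 1 each, and the Fads2 window held 0. The Gpam window is that of 1 of its starts, and its other window held 0. Windows were found for 26 members, 37 in all. CCAAT was in 17 of the 37, or 45.9%, against 33.8% of all 32851 windows of this length. CACGTG, the E-box, was in 3 of 37 (6.02% of all). TCACNCCAC, the letters of the classical sterol response element with N for any base, was in 4 of 37 (1.05% of all), from 3 members, Acsl1, Mlxipl and Pcyt1a, whose 2 matching windows overlap each other. Both strands were searched. A match describes these letters and is not a measured binding site, Mlxipl and Pcyt1a were not called here, and Acsl1 had no value.

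Other genes of lipid metabolism were counted from 8 lists. Of 157 listed genes 147 had a probe set and 133 were tested, with 3 called higher and 2 called lower, against 1.41% and 4.57% of all genes. Their median difference was -0.23. Called genes lay in 3 of the lists, and the list of phospholipid synthesis and remodelling enzymes held 3 of the 5.

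In that list 1 of 24 genes was higher, 2 were lower, and the median was 0.06. Mboat2, an acyltransferase that puts acyl chains back onto lysophospholipids, read 9.90, 10.48 and 10.11 in E18 and 8.10, 7.29 and 6.76 in adult arrays. It was 6.86-fold lower (-2.78, SE 0.42, adjusted p = 0.0130) and lay lower in every adult array. Lpcat3, which loads polyunsaturated chains onto phosphatidylcholine, read 10.98, 11.00 and 10.80 against 9.30, 9.72 and 9.82 (-1.31, SE 0.28, adjusted p = 0.0406). Lpgat1, an acyltransferase of lysophosphatidylglycerol, read 10.11, 10.54 and 10.84 against 12.79, 11.73 and 12.32 (1.78, SE 0.36, adjusted p = 0.0333). Lpcat1, named after its values were seen because it makes the dipalmitoyl lipid of surfactant, did not pass (13.14 ± 0.62 against 12.33 ± 0.048, SD, n = 3, adjusted p = 0.234). It differed by -0.81 and lay lower without overlap, as did 18.8% of all genes. The margin was narrow, with E18 replicate 3 at 12.435 and the highest adult array at 12.367.

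Among the other enzymes of fatty acid synthesis, elongation and desaturation 1 of 17 was called, with a median of -0.38. This was Acss2, which makes acetyl-CoA from acetate in the cytosol. It read 9.12, 8.83 and 8.81 in E18 and 11.46, 10.43 and 10.58 in adult arrays, 3.74-fold higher (1.90, SE 0.36, adjusted p = 0.0258) and above E18 in every adult array. Elovl2, Elovl4 and Scd3 were under the floor on all arrays. In fatty acid oxidation 1 of 21 genes was called, with a median of -0.24. Slc25a20, which carries acylcarnitines into mitochondria, read 10.72, 10.68 and 10.74 against 12.50, 11.83 and 11.77 (1.32, SE 0.30, adjusted p = 0.0464).

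The remaining 5 lists held no called gene. Medians were -0.41 for NADPH and citrate supply (6 tested), -0.20 for other glycerolipid synthesis enzymes (14), 0.14 for acyl-CoA synthetases, thioesterases and transporters (13), -0.08 for lipid droplet and lipolysis genes (13) and -0.35 for other regulators of lipid synthesis (25). The gene with the largest difference among those tested is given for each list, in that order. These were Idh2 (-2.04, adjusted p = 0.171), Plpp3 (-2.35, adjusted p = 0.171), Slc27a3 (-2.50, adjusted p = 0.272), Plin5 (2.19, adjusted p = 0.104) and Ppara (-1.60, adjusted p = 0.442). Slc27a3 and Ppara were each under the floor on 2 adult arrays, and with such values set to the floor they differed by -0.86 and -0.54. Among genes above the floor on all 6 arrays, the largest difference was 1.15 for Acot7, a thioesterase, in the list of Slc27a3, and -1.59 for Pparg, a nuclear receptor of fat storage, in that of Ppara (adjusted p = 0.198 and 0.0612, neither overlapping). Acot7 and Pparg were named after their values were seen. Idh2 is the mitochondrial isocitrate dehydrogenase, Plin5 coats lipid droplets, and Ppara is a nuclear receptor of fatty acid oxidation.

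Each of the 5 calls in these lists depended on which arrays entered. None was left without E18 replicate 1, E18 replicate 2 or adult replicate 2, 1 (Mboat2) without E18 replicate 3, and 2 (Acss2 and Mboat2) without adult replicate 1, while 32 of 133 genes, or 24.1%, were called without adult replicate 3, where 20.8% of all genes were. Of all genes 4.29% were called without adult replicate 1. With all probe sets of a gene averaged, Acss2 (1.15, adjusted p = 0.0974), Lpgat1 (0.66, adjusted p = 0.307) and Slc25a20 (0.91, adjusted p = 0.0629) did not pass.

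**Figure D5:**
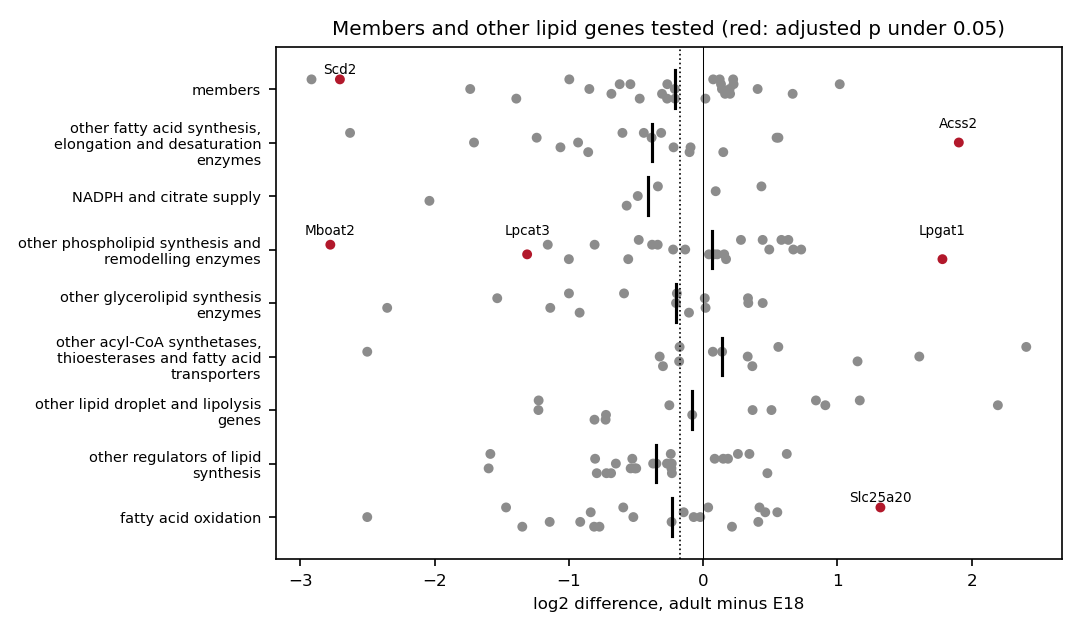
Difference in log2 signal, adult minus E18 (horizontal axis), for each tested member and each tested gene of the 8 other lipid lists, with a black bar at the median of each list and a dotted line at the median of all genes. Red points are the genes with an adjusted p under 0.05, which are Scd2 among the members and Acss2, Mboat2, Lpcat3, Lpgat1 and Slc25a20 in the lists.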

How the data were processed

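The submitters' processing notes name Affymetrix Expression Console and MAS5. The deposited values are linear signal intensity per probe set, already scaled by the authors, since every array had the same mean, 500.00, once 2% of values were trimmed at either end. Precision is limited by how many arrays there are. The values were log2 transformed with no pseudocount and no further normalization. Of 45101 probe sets 34945 had exactly 1 gene symbol in the array's gene table, 932 had several and 9160 were not listed, and 34741 matched RefSeq by gene ID. The brightest probe set stood for each gene. A gene was tested where it reached its array's 40th percentile, the detection floor, on at least 3 of 6 arrays. The comparison used limma 3.58.1 under R 4.3.3 (lmFit and eBayes with an intensity trend, two-sided, Benjamini-Hochberg over all genes tested), and every adjusted p of a gene comes from it. Within-array ratios were tested by exact permutation. The fit was checked on simulated data that gave both populations the same SD for a gene. That check does not cover the unequal spread of the populations on these arrays. Promoter windows came from a RefSeq table, which matched 26 of 31 members, and figures were drawn with matplotlib 3.10.9 under Python 3.11.15.

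The members and lists were chosen with earlier results of these data known. Arrays of the same number did not pair, with correlations of their deviations of 0.036, -0.14 and -0.058 for replicates 1, 2 and 3. Members with an adjusted p under 0.05 or without overlap, and Scd1 and Scd2, are given by array, the other members by range or difference. From the other lists the called genes are named, or else the tested gene with the largest difference. Alternatives covered normalization, centring, filters, a pseudocount of 16, averaged probe sets, the variance prior, blocks, the third replicates and each array left out. After the data were seen, leaving out probe sets marked _x or _s was added. P-values weigh a difference against the spread between these samples. In limma a gene's residual variance is shared by both populations. The median SD of the members was 0.29 in E18 and 0.78 in adult arrays. Acacb against Acaca and Acsl1 against Acsl4 were planned as ratios and not computed, since Acacb was under the floor and Acsl1 had no probe set of its own.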

Additional observations from a re-analysis of the deposited data

How the results depend on the processing

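Scd2 stayed lower in every alternative run, from -3.11 to -1.94, and was called in each tested one except without E18 replicate 1, E18 replicate 2 or adult replicate 2. Leaving out 1 array at a time gave -3.11 to -2.40 for Scd2, and the third replicates alone -1.94. The Scd1 to Scd2 ratio kept its sign throughout. Members called were 8 in replicates 1 and 2 only and 0 to 7 with 1 array left out. Genes called over all tested were 798, 492 with the replicate number as a replicate block, 2996 in replicates 1 and 2 only and 66 to 2770 with 1 array left out (69 without E18 replicate 1, 66 without E18 replicate 2, 505 without E18 replicate 3, 226 without adult replicate 2, 2770 without adult replicate 3). The lipid lists had 5 calls, 3 with no filter, 3 with no intensity trend, 2 with the replicate block, 30 in replicates 1 and 2 only and 0 to 32 with 1 array left out. The replicate block left Scd2 called (adjusted p = 0.0264), and the numbers do not pair the samples. The member median was 0.21 between the third replicates.

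In the alternatives with a test, signs reversed 42 times, in 17 of 33 named genes. All 17 were among the 28 members tested, and no reversed gene was called on all 6 arrays. Between the third replicates, which have no test, 14 of 28 members had another sign than on all 6 arrays, Fads1 (1.08), Acsl3 (0.78), Fasn (0.37), Slc25a1 (0.30) and Gpam (0.16) among them. Quantile normalization turned Acly (-0.37), Dgat1 (-0.27) and Elovl5 (-0.12). Averaged probe sets turned Acly (-0.19), Elovl5 (-0.067), Pcyt1a (-0.32) and Scd1 (0.58). Leaving out _x and _s probe sets turned Acly (-0.85), Elovl1 (-0.62) and Elovl5 (-0.54). Replicates 1 and 2 only turned Acot1 (-0.83), Mlxipl (-0.14), Plin2 (0.073) and Srebf1 (-0.13). With 1 array left out, the range was -0.11 to 0.34 for Acaca, -0.38 to 0.47 for Acly, -0.46 to 0.46 for Acot1, -0.69 to 0.18 for Acsl4, -0.16 to 0.47 for Agpat2, -1.16 to 0.38 for Chpt1, -0.36 to 0.69 for Dgat1, -0.059 to 0.78 for Elovl5, -0.063 to 0.42 for Elovl6, -0.070 to 0.61 for Lpin1, -1.66 to 0.22 for Me1, -0.21 to 0.91 for Mlxipl, -0.0080 to 0.42 for Pcyt1a, -0.88 to 0.16 for Scd1 and -0.018 to 0.43 for Srebf1. The causes were not tested. With 3 arrays a population, signals near the floor, as for Mlxipl and adult Fads2, carry little information.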
